A study of Gallus gallus with 9 samples.

Results

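The genes described here are the cytosolic ribosomal protein genes of the chicken liver, the genes that encode the proteins of the 60S (large) and 40S (small) ribosomal subunits. A locus was taken as a member when 1 of its gene symbols had the form RPL or RPS followed by a number, or was RPLP0, RPLP1, RPLP2 or RPSA, which gave 67 of the 22082 loci counted. Of these, 41 encode large-subunit proteins or their paralogs and 26 small-subunit proteins. The rule used names only and no measured value. Livers came from ISA Brown layer hens of 55 weeks of age, in 3 groups of 3 hens. All hens hatched from eggs that were incubated together, and they were reared in floor pens. For the albumen-deprived hens, saline took the place of 3 ml of the egg's albumen after 1 day of incubation. The sham-manipulated hens came from eggs that were drilled and sealed with their albumen left in place, and the eggs of the non-manipulated hens received no treatment. Each library is the RNA of 1 hen, so that replicates are separate animals.

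A ribosome holds 1 copy of nearly every ribosomal protein, and ribosomal proteins made in excess of their partners are degraded. Their mRNAs are short, abundant in every cell and begin with a 5′ terminal oligopyrimidine tract, through which mTOR signalling in vertebrates sets how strongly they are translated, so that the mRNA level is only 1 of the layers at which ribosome supply is set. The liver of a laying hen exports yolk precursors and plasma proteins in large amounts and depends on a large protein synthesis capacity.

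Total counts were between 13720872 and 21747636 reads per library. Defining hepatocyte genes, among them the yolk protein genes VTG2 and APOVLDLII, summed to between 259637 and 376088 CPM (counts scaled to library size) per hen, as a liver label requires. Values below are CPM after scaling by trimmed mean of M-values (TMM), with a locus tested when it had over 1 CPM in at least 3 libraries. Of the 67 members, 66 passed this filter, among 12324 loci tested. The member that did not is RPL3L, a paralog of RPL3 that in mammals is mostly restricted to striated muscle. RPL3L had 3, 6 and 10 counts in the non-manipulated hens, 7, 7 and 1 in the sham-manipulated hens and 3, 8 and 5 in the albumen-deprived hens, which is at most 0.0743% of the CPM of RPL3. Reads of RPL3L and of other paralog pairs are uncertain where the copies share sequence.

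Of 79 canonical ribosomal protein genes listed, 63 had a member locus. The other 16, among them RPL11, RPS18 and RPS19, were not analysed here. The members lie on 25 chromosomes, with RPS6, RPS23, RPL37 and a locus named RPL17L on Z, while a further RPL17L locus and RPS26 lie on unplaced scaffolds (Galgal4). Both loci carry the symbol RPL17L, a synonym of RPL17, and the scaffold copy had 9.88% ± 0.735 (SD, n = 9) of the CPM of the Z copy, so that reads may be split between near-identical copies. The RPS12 locus also holds the small nucleolar RNA gene SNORD100 and the RPL39 locus also holds UPF3B, so that part of their reads may come from those genes. Member loci had a median length of 851 bases, against 1824 bases over all loci.

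Ribosomal protein mRNAs were among the most abundant of the liver. The median member had a mean level of 300.2 CPM, with a range from 17.3 to 931 CPM among those above the filter, against a median of 12.7 CPM over all loci tested. Of the 66 genes, 63 exceeded 100 CPM, a level that 8.93% of the loci tested exceeded. Per kilobase of locus model the median was 371 CPM, against 4.01 CPM over all loci tested, and 64 of the 66 genes were at or above the 95th percentile. Large-subunit genes had a median of 406 CPM per kilobase and small-subunit genes 352.

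The highest level per length belonged to RPLP1, 1 of the acidic P-stalk proteins that bind the translation factors on the large subunit (chr2:145289505-145290656, Galgal4). RPLP1 reached 1418 ± 172 CPM per kilobase (SD, n = 9). It was followed by RPS3A at 1056 ± 117 CPM per kilobase, and RPS25 at 738 ± 96.1 and RPL27 at 709 ± 56.4 CPM per kilobase were also among the 5 highest. RPS3A is a core protein of the small subunit, RPS25 is needed for initiation at several viral internal ribosome entry sites, and RPL27 is a large-subunit protein. Within every hen RPLP1 was above RPS3A per kilobase, although their ranges over the hens overlapped. The order of RPS25 and RPL27 differed between hens. The lowest levels per length were those of the scaffold copy of RPL17L at 17.0 ± 1.87, RPL7L1 at 39.4 ± 4.50, RPL22L1 at 70.7 ± 9.20, RPS16 at 76.8 ± 9.19 and RPL35 at 79.6 ± 7.88 CPM per kilobase. RPL7L1 and RPL22L1 are paralogs. The locus models of RPL35, RPS16, RPL21 and RPL39 span 1923, 3377, 5078 and 3595 bases, far above the length of their coding sequences. Division by model length therefore lowers the level given for these genes. Over the 66 genes, Spearman's rho between model length and CPM per kilobase was -0.55.

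**Figure D1:**
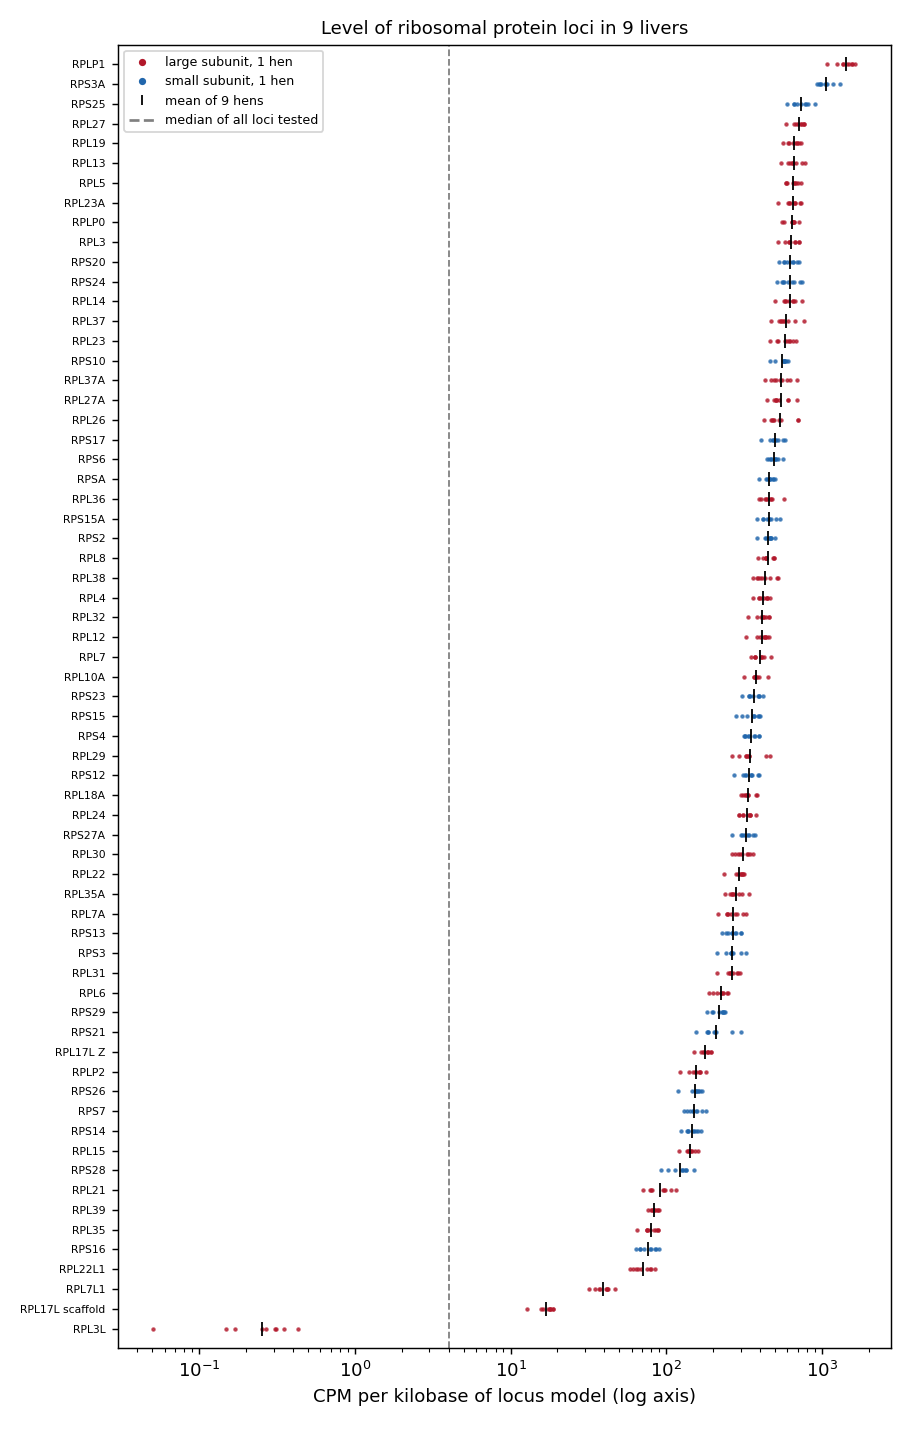
Level of 65 of the 67 ribosomal protein loci in CPM per kilobase of locus model (log axis), with 1 point per hen and a tick for the mean of 9 hens. All loci but RPL3L lie to the right of the median of all loci tested (4.01 CPM per kilobase), and RPLP1 is highest at 1418.

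The paralogs RPL3L, RPL22L1 and RPL7L1 were below their parent genes in every hen. The symbols RPL26 and RPL39 matched the RefSeq gene names RPL26L1 and RPL39L as synonyms, so whether these 2 loci are parents or paralogs is uncertain. RPSA and RPS4 likewise matched the names RPSAP58 and RPS4Y1, so the naming of these loci is uncertain as well. RPL22L1, the paralog of the RNA-binding protein RPL22, had 36.1% ± 3.83 (SD, n = 9) of the CPM of RPL22, from 29.0% to 41.8%. The share was 39.2%, 36.1% and 33.2% in the non-manipulated hens, 41.8%, 29.0% and 33.1% in the sham-manipulated hens and 37.3%, 38.4% and 36.7% in the albumen-deprived hens. The albumen-deprived hens lay inside the range of both other groups. RPL7L1, a paralog of RPL7 that in human cells acts in ribosome assembly, had 12.7% ± 1.94 of the CPM of RPL7, from 10.1% to 16.1%, and its 3 groups overlapped as well.

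The share of all counts that fell on the 67 loci was 2.26%, 2.33% and 2.15% in the non-manipulated hens, 2.42%, 2.20% and 2.40% in the sham-manipulated hens and 1.80%, 2.52% and 2.14% in the albumen-deprived hens. Counting error on these shares is small, as the widest 95% Wilson interval ran from 2.39% to 2.41%. Both the lowest and the highest share belonged to albumen-deprived hens, and the 3 groups overlapped. Group means were 2.25% ± 0.0917, 2.34% ± 0.120 and 2.15% ± 0.361 (SD, n = 3), so that the differences between means were smaller than the spread within the albumen-deprived group.

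After TMM scaling the summed level was 22908, 25596 and 21247 CPM in the non-manipulated hens, 21728, 23788 and 22304 CPM in the sham-manipulated hens and 18923, 24431 and 21555 CPM in the albumen-deprived hens. Albumen-deprived hen 1 was lowest on both scales, whereas the highest hen was albumen-deprived hen 2 by share and non-manipulated hen 2 after scaling. Group means of the sum were 23250 ± 2194, 22607 ± 1063 and 21636 ± 2755 CPM. By library code, the last 3 libraries, 1 from each group, lay between 21247 and 22304 CPM, and the first 6 covered the whole range from 18923 to 25596 CPM. The authors sequenced all samples together in 1 flow cell lane. Whether the code marks a batch of RNA extraction or library preparation is not stated in the sources used here. Within the first 6 codes the group means were 24252 CPM in the non-manipulated, 22758 CPM in the sham-manipulated and 21677 CPM in the albumen-deprived hens (2 hens each), in the same order as over all hens. Within the last 3 codes, with 1 hen per group, the sham-manipulated hen was highest.

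The balance of the subunits varied less than the total. The ratio of the summed large-subunit to the summed small-subunit CPM was 1.47, 1.51 and 1.48 in the non-manipulated hens, 1.54, 1.55 and 1.53 in the sham-manipulated hens and 1.52, 1.499 and 1.54 in the albumen-deprived hens. The sham-manipulated hens all lay above the non-manipulated hens, and the albumen-deprived hens overlapped both. The highest ratio was 1.05 times the lowest, against 1.35 times for the summed level. No test was run on this ratio.

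**Figure D2:**
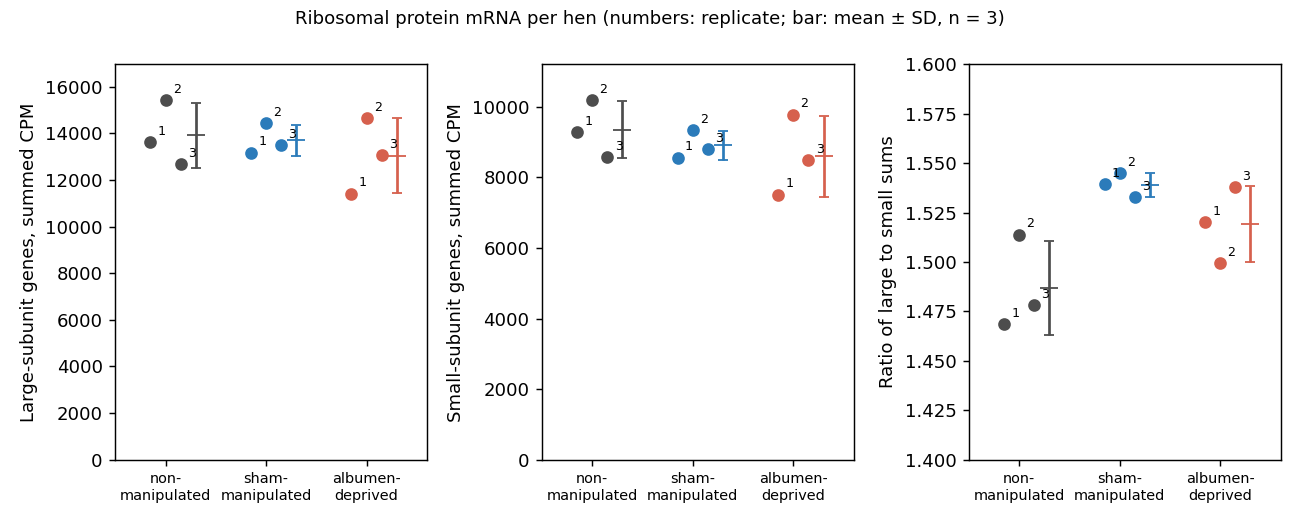
Summed CPM of the large-subunit and of the small-subunit genes and the ratio of both sums (vertical axes), by group, with 1 numbered point per hen and a bar for the mean ± SD (n = 3). The ratio axis does not start at 0. Albumen-deprived hen 1 is lowest in both sums, at 11415 and 7508 CPM, and the sham-manipulated hens have ratios from 1.53 to 1.55.

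Most of the variation was shared by the genes and lay between hens of the same group. Each gene was set against its own mean over the 9 hens. In the non-manipulated hens 48, 64 and 12 of the 66 genes were above their own mean, in the sham-manipulated hens 26, 59 and 29, and in the albumen-deprived hens 0, 62 and 13. Hens of 1 group thus stood on opposite sides, and for 54 of the 66 genes the lowest of all hens was albumen-deprived hen 1. Of the variance of the mean member level, 84.9% lay within groups, where 75% is expected with no difference between groups. The low level of albumen-deprived hen 1 did not hinge on the scaling, as 0 of 66 genes were above their mean with DESeq2 size factors, and 1 of 66 in the GC-normalized FPKM values that the authors deposited. In those FPKM values the other hens moved: sham-manipulated hen 1 had 46 genes above their mean instead of 26, and sham-manipulated hen 2 had 25 instead of 59.

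Albumen-deprived hen 1 also stood at the end of 2 technical measures. The rank correlation between a locus's deviation and its length, over the loci that are not members, was 0.115 in this hen, the highest of the 9, with the others between -0.136 and 0.0543. The rank correlation with GC content was -0.223, the lowest of the 9, with the others between -0.109 and 0.203. The mean deviation of this hen over the 66 genes was -0.25 on the log2 scale before and -0.26 after GC normalization, which does not address length. Over the 9 hens, the mean member level had r of -0.52 with the length correlation and -0.014 with the GC correlation. Without the 2 hens farthest from the median of each measure, these were -0.47 and -0.80. The part of length and GC content in the low level of this hen was not tested.

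**Figure D3:**
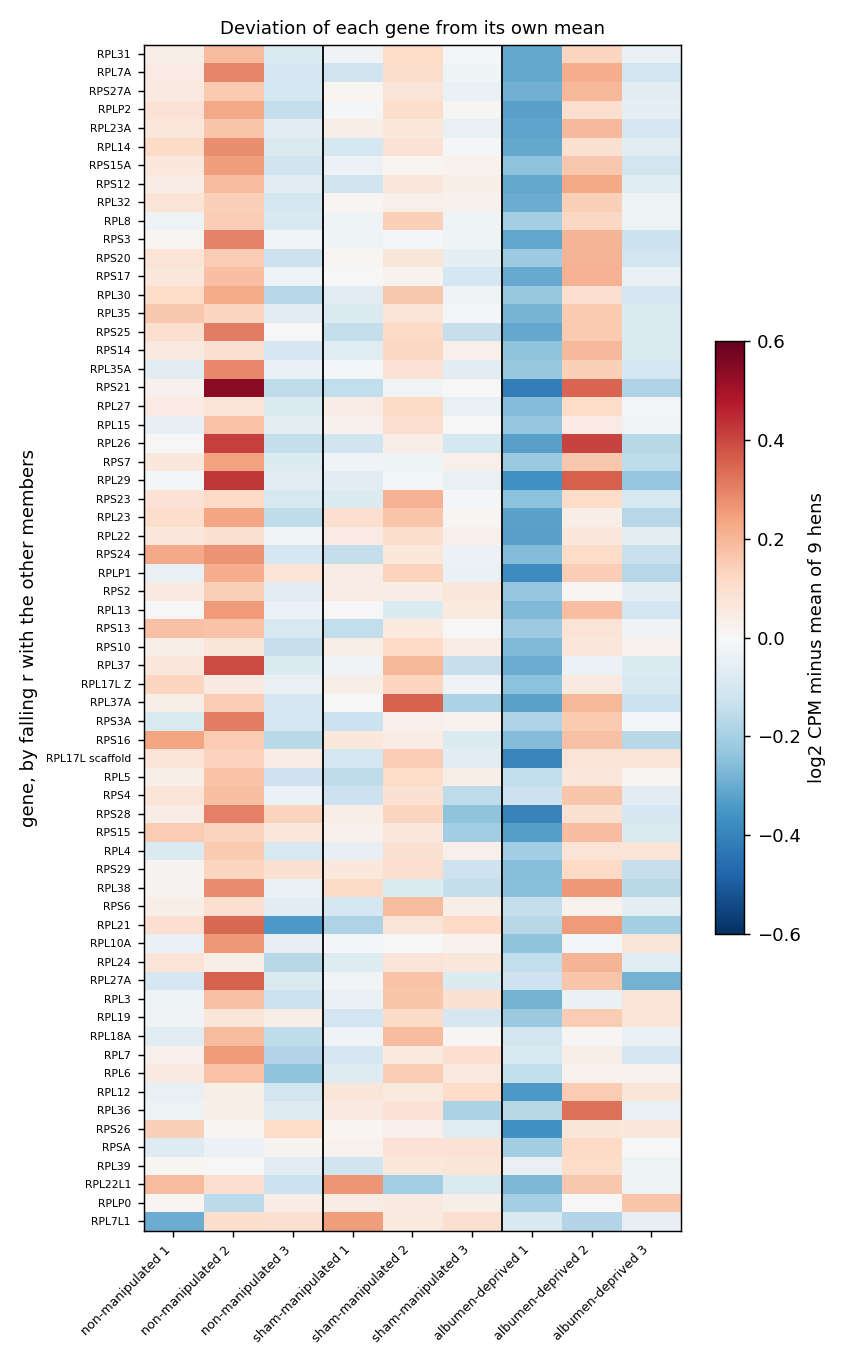
Deviation of 64 of the 66 genes (vertical, ordered by falling correlation with the other members) from its own mean log2 CPM in each of the 9 hens (horizontal, by group), as colour from -0.6 to 0.6. The column of albumen-deprived hen 1 is below the mean for every gene shown, and those of non-manipulated hen 2 and albumen-deprived hen 2 are above it for most.

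The genes varied together across hens. Over the 2145 pairs of members, Pearson's r of log2 CPM over the 9 hens had a median of 0.74, with quartiles of 0.60 and 0.83, while all pairs of loci tested had a median of -0.00044 and quartiles of -0.28 and 0.28. Of the member pairs 84.7% exceeded 0.5, against 9.82% of all pairs. Among the other 1037 loci over 100 CPM, 15.1% of pairs exceeded 0.5, with a median r of 0.069. The part of abundance in the correlation of the members was not tested. Pairs within the large subunit (median 0.72), within the small subunit (0.77) and between subunits (0.74) had similar values. The first principal component held 73.3% of the variance of the members, against 19.5% over all loci tested. These correlations are descriptions over 9 libraries that share their depth and scaling between genes.

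The size of this correlation depended on 1 hen and on the normalization. Without albumen-deprived hen 1 the median r of member pairs was 0.60. After a GC normalization (full quantile, by GC bin and then across samples) it was 0.49, and in the deposited FPKM values 0.48. The median over all pairs of loci was -0.00038, 0.0012 and 0.00058 in these settings. With the group means removed the median was 0.77.

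**Figure D4:**
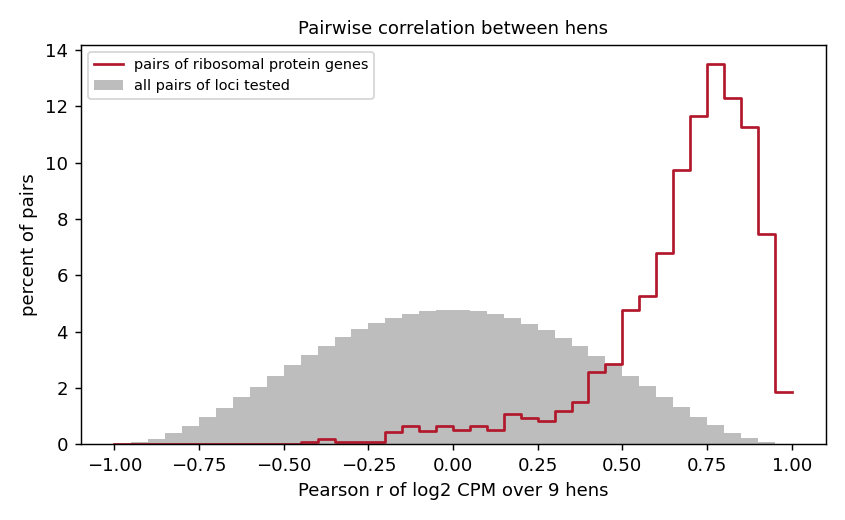
Distribution of Pearson's r of log2 CPM over the 9 hens (horizontal, in steps of 0.05) as percent of pairs (vertical), for the 2145 pairs of ribosomal protein genes (line) and for all pairs of loci tested (bars). The member pairs peak near 0.8 and have a median of 0.74, and all pairs are centred on 0.

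RPL31, which lies at the rim of the exit tunnel of the large subunit (chr1:132725776-132731147), followed the rest most closely, with r of 0.99 and a Spearman's rho of 1 against the mean of the other members. RPL31 was at 256, 285 and 235 CPM in the non-manipulated hens, 246, 270 and 247 CPM in the sham-manipulated hens and 202, 273 and 243 CPM in the albumen-deprived hens. RPL7A, RPS27A (a fusion of ubiquitin and a small-subunit protein), RPLP2 and RPL23A had r between 0.97 and 0.98. In all, 47 of the 66 genes had an r over 0.8 with the mean of the others, as did 0.400% of the other loci.

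The spread within groups was small for most members. The SD of log2 CPM within groups had a median of 0.16 over the 66 genes and 0.26 over all loci tested, and 0.22 over the other loci above 100 CPM. The part due to counting alone had a median of 0.021. The widest spread was that of RPS21, a small protein of the 40S subunit (chr20:8282587-8286470), with an SD of 0.31. RPS21 was at 179, 255 and 158 CPM in the non-manipulated hens, 158, 173 and 175 CPM in the sham-manipulated hens and 131, 223 and 154 CPM in the albumen-deprived hens. Its 2 highest hens were non-manipulated hen 2 and albumen-deprived hen 2, its lowest was albumen-deprived hen 1, and the groups overlapped. RPL26, RPL29, RPL21 and RPL37A, all of the large subunit, followed with SDs of 0.28, 0.27, 0.27 and 0.23. RPL39, whose protein lines the exit tunnel, had the narrowest spread at 0.084, between 276 and 324 CPM over all hens. Its locus also holds UPF3B, so this spread is that of the joint locus. Next came RPS2 (0.095), RPSA (0.10), RPS6 (0.11) and the Z copy of RPL17L (0.11). The RPL39 locus had an r of 0.52 with the other members, which was -0.27 after GC normalization. RPS6, the small-subunit protein that S6 kinases phosphorylate downstream of mTOR, was at 519, 540 and 484 CPM in the non-manipulated hens, 470, 577 and 517 CPM in the sham-manipulated hens and 458, 513 and 485 CPM in the albumen-deprived hens, and its groups overlapped.

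A few members did not follow the others. RPLP0, the protein that anchors the P stalk to the large subunit (chr15:9436872-9439496), had an r of 0.096 and a rho of -0.20 with the mean of the other members. RPLP0 was at 708, 630 and 725 CPM in the non-manipulated hens, 724, 729 and 719 CPM in the sham-manipulated hens and 609, 704 and 788 CPM in the albumen-deprived hens. It was low in albumen-deprived hen 1 like the rest, but also low in non-manipulated hen 2, where 64 members were above their mean. Its r therefore rested on single hens and was -0.79 without albumen-deprived hen 1 and 0.54 without non-manipulated hen 2. Its stalk partners RPLP1 and RPLP2 had r of 0.88 and 0.97 with the other members. The genes most like RPLP0 over the 9 hens were RPS26 (r of 0.67), RPSA (0.63) and RPL12 (0.61), a protein at the base of the stalk. RPSA and RPL12 had an r of 0.88 with each other. All of these genes were lowest in albumen-deprived hen 1. Their deviations there from their own mean log2 CPM were -0.21 (RPLP0), -0.36 (RPS26), -0.21 (RPSA) and -0.34 (RPL12). These pair correlations were not computed without that hen, so they may rest on it.

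RPL7L1 (chr4:53956113-53959866) had an r of -0.020 with the other members, and between -0.25 and 0.15 when each hen was left out in turn. RPL7L1 was at 52.2, 69.0 and 68.6 CPM in the non-manipulated hens, 76.3, 66.7 and 68.6 CPM in the sham-manipulated hens and 60.2, 56.7 and 61.9 CPM in the albumen-deprived hens. Every albumen-deprived hen was below every sham-manipulated hen, and non-manipulated hen 1 was lowest of all. RPL22L1 followed the others with an r of 0.52. This r was 0.22 without albumen-deprived hen 1, 0.71 without sham-manipulated hen 2 and 0.74 after GC normalization. RPL22L1 was at 50.0, 47.0 and 40.1 CPM in the non-manipulated hens, 52.7, 38.0 and 41.2 CPM in the sham-manipulated hens and 36.4, 49.0 and 42.9 CPM in the albumen-deprived hens. Its highest hen was sham-manipulated hen 1 and its groups overlapped. Both paralogs are among the least abundant members, with counting SDs of log2 CPM of 0.054 for RPL22L1 and 0.044 for RPL7L1, beside SDs within groups of 0.21 and 0.15.

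The comparison of albumen-deprived with non-manipulated hens asks whether the whole treatment left a lasting change in the mRNA supply of the ribosome. It cannot tell prenatal protein undernutrition apart from the drilling and sealing of the egg, as non-manipulated eggs received neither. No member passed the cut-off of the study, P under 0.001 together with an absolute log2-fold change above 1, in edgeR's quasi-likelihood test, which 0.0487% of the loci tested passed. At an unadjusted P under 0.05, 0 of 66 members were higher and 0 lower, where 1.66% of the loci were higher and 1.57% lower. DESeq2 and the likelihood ratio test also gave 0 members at that level. The median log2-fold change of the members was -0.11, against 0.0071 over all loci tested, and 60 of 66 were below 0, against 48.5% of the loci. The median depended on single hens: without albumen-deprived hen 1 it was -0.027 with 42 genes below 0, and without non-manipulated hen 2 it was -0.036 with 50 below 0. Without albumen-deprived hen 2 it was -0.22 with 65 below 0, and without non-manipulated hen 3 it was -0.17 with 62 below 0. Because the genes vary together, the 66 directions are not independent observations.

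RPS28, a small-subunit protein at the exit of the mRNA channel (chr28:887562-888920), had the smallest P in this comparison. RPS28 was at 149, 179 and 159 CPM in the non-manipulated hens, 149, 159 and 123 CPM in the sham-manipulated hens and 110, 154 and 135 CPM in the albumen-deprived hens. Albumen-deprived hen 2 lay above non-manipulated hen 1, so that the groups overlapped. Its log2-fold change was -0.29 ± 0.16 (SE), with an edgeR P of 0.108 and an adjusted p of 0.99995. RPL37, RPS24 and RPL23 followed with log2-fold changes between -0.28 and -0.22. No member had an absolute log2-fold change over 0.5, as 8.94% of the loci did, and the 95% intervals of the 66 genes lay between -0.73 and 0.42, so that changes of the size of the cut-off fell outside every interval. No member had groups without overlap in this comparison, where 4.55% of the loci had higher and 3.84% lower albumen-deprived hens without overlap.

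The comparison with sham-manipulated hens sets the albumen exchange apart from the handling of the egg. No member passed the cut-off, which 0.105% of the loci tested passed, and at an unadjusted P under 0.05 there were 0 higher and 0 lower members, against 4.11% and 3.02% of the loci. DESeq2 and the likelihood ratio test gave 0 as well. The median log2-fold change was -0.061, against -0.013 over all loci, and 57 of 66 were below 0, against 52.2% of the loci. Without albumen-deprived hen 1 the median was 0.034 and 22 genes were below 0, and without albumen-deprived hen 2 it was -0.17 with 66 below 0. Without sham-manipulated hen 2 it was -0.029 with 45 below 0. The direction of the median thus depended on which albumen-deprived hens were included. No member had an absolute log2-fold change over 0.5, against 13.8% of the loci, and the 95% intervals lay between -0.57 and 0.55. Of 7 heterophil marker loci, 4 were lower in the albumen-deprived hens at an unadjusted P under 0.05. The list summed to 52.4, 56.4 and 16.9 CPM in the sham-manipulated hens and 19.1, 13.8 and 12.7 CPM in the albumen-deprived hens. In the non-manipulated hens it summed to 37.1, 19.2 and 14.5 CPM. Sham-manipulated hens 1 and 2 were thus the highest, and sham-manipulated hen 3 lay below albumen-deprived hen 1. The part of heterophils in the values of the members was not tested.

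RPL7L1 had the smallest P in this comparison, with a log2-fold change of -0.24 ± 0.13 (SE), an edgeR P of 0.101 and an adjusted p of 0.769. It was 1 of 2 members whose groups did not overlap, both lower in the albumen-deprived hens, a share of 3.03% where 6% of the loci were lower without overlap. No member was higher without overlap, as 6.75% of the loci were. The other was RPS2, a small-subunit protein near the mRNA entry (chr14:6132779-6135551), at 484, 484 and 491 CPM in the sham-manipulated hens and 399, 473 and 451 CPM in the albumen-deprived hens. For RPS2 edgeR gave a log2-fold change of -0.14 ± 0.12 (SE) and a P of 0.280. RPL23, RPL22 and the Z copy of RPL17L, with log2-fold changes of -0.24, -0.16 and -0.14, completed the 5 smallest P.

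**Figure D5:**
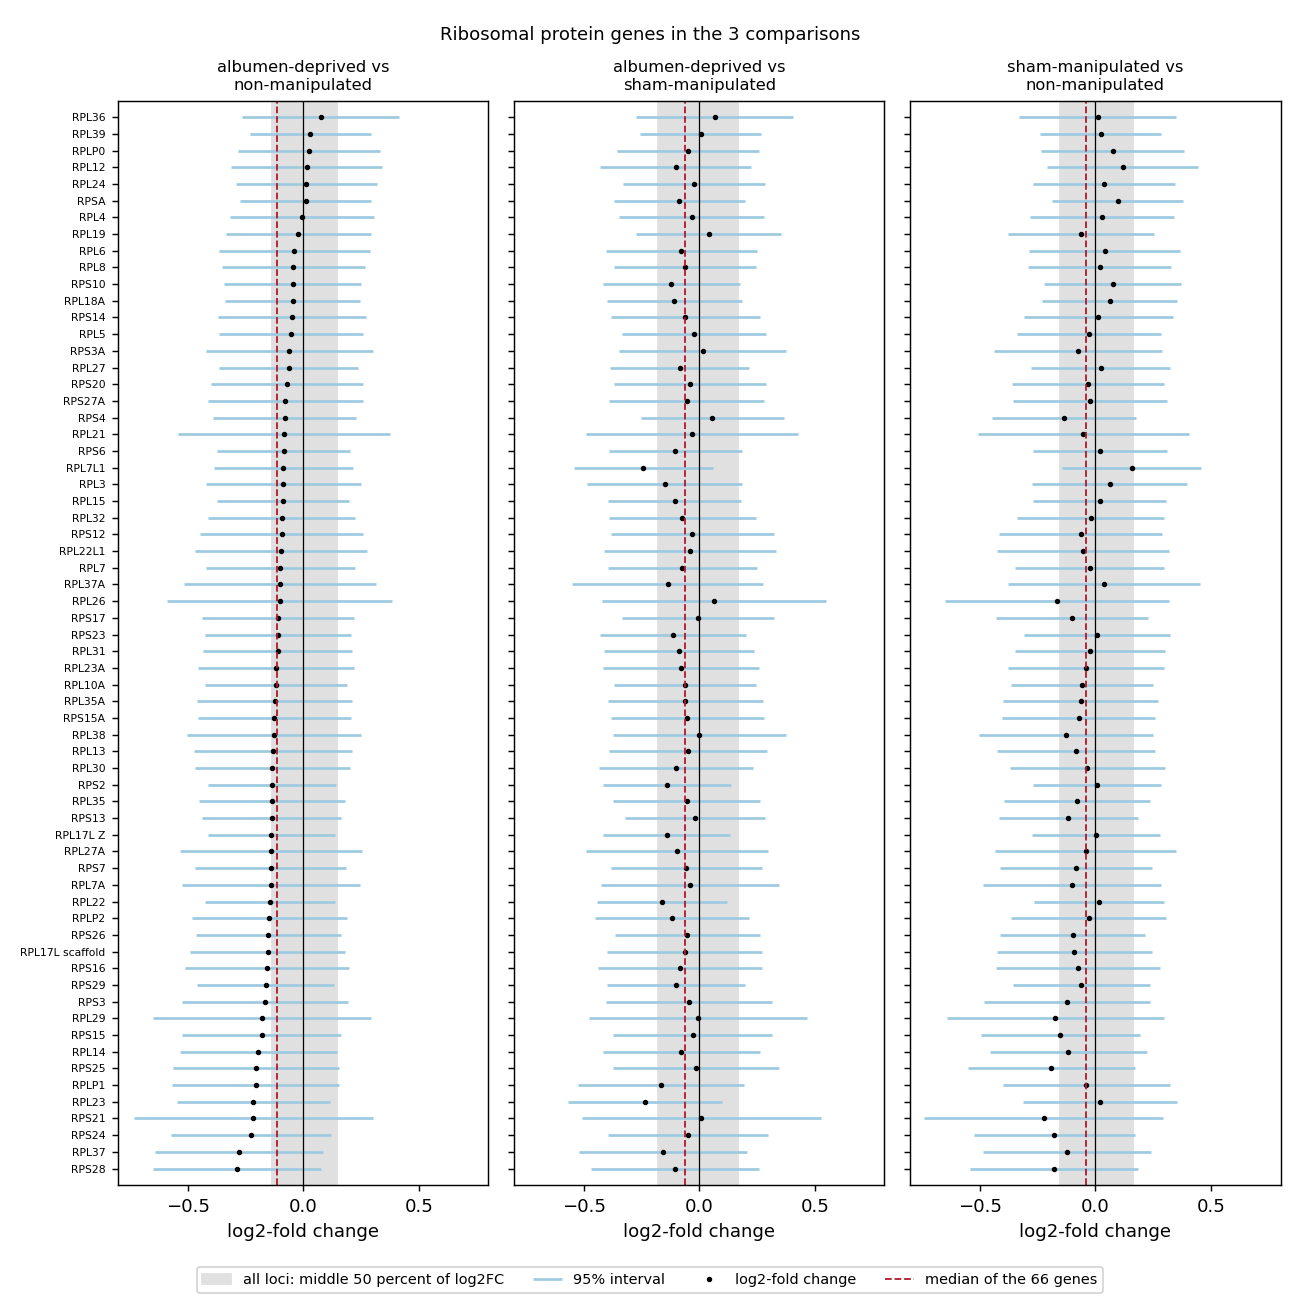
Log2-fold change of 64 of the 66 genes (horizontal, with 95% intervals) in the 3 comparisons, in the order of the first. The grey band lies between the quartiles of the log2-fold changes of all loci tested and the dashed line the median of the 66 genes, at -0.11, -0.061 and -0.041. Every interval includes 0 and none reaches 1 in either direction.

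The comparison of sham-manipulated with non-manipulated hens addresses the mock treatment of the egg, its drilling and sealing. Both other comparisons share a group with this one, so that the 3 sets of values are not independent. No member passed the cut-off, which 0.0649% of the loci passed, and 0 members were higher and 0 lower at an unadjusted P under 0.05, against 2.3% and 2.98% of the loci. DESeq2 and the likelihood ratio test gave 0. The median log2-fold change was -0.041, against 0.012 over all loci, and 43 of 66 were below 0, against 48% of the loci. No member exceeded 0.5 in absolute value, as 12.3% of the loci did. Without non-manipulated hen 2, the hen with the highest summed level, the median was 0.028 with 20 genes below 0. It was -0.11 with 60 below 0 without non-manipulated hen 3, -0.085 with 57 below 0 without sham-manipulated hen 2 and -0.021 with 41 below 0 without sham-manipulated hen 3. RPS25 had the smallest P, with a log2-fold change of -0.19 ± 0.16 (SE) and an edgeR P of 0.264, followed by RPL7L1 at 0.16 and by RPS24 and RPS28, both at -0.18. After GC normalization RPS4 alone was under an unadjusted P of 0.05, with a log2-fold change of -0.29 ± 0.11 (SE), an edgeR P of 0.0294 and an adjusted p of 0.874. The share of all loci at that level after GC normalization is not given here.

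The 2 members that did not overlap in this comparison were RPSA and RPL12, both higher in the sham-manipulated hens, a share of 3.03% where 4.78% of the loci were higher without overlap. No member was lower without overlap, as 4.93% of the loci were. RPSA, a small-subunit protein also known as the laminin receptor (chr2:44935746-44940493), was at 465, 478 and 496 CPM in the non-manipulated hens, 497, 520 and 520 CPM in the sham-manipulated hens and 425, 533 and 491 CPM in the albumen-deprived hens. RPL12 (chr17:1555905-1558316) was at 258, 272 and 247 CPM in the non-manipulated hens, at 280, 277 and 287 CPM after the sham manipulation and at 210, 296 and 280 CPM after albumen deprivation. In both genes the albumen-deprived hens covered the whole range of the other groups. Their log2-fold changes were 0.096 ± 0.13 and 0.12 ± 0.14 (SE), neither beyond its error.

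Other genes of translation were read on the same libraries. All members together had 0 calls at an unadjusted P under 0.05, and so did the 5 elongation factor loci tested (EEF2 and others), the 35 initiation factor loci and 16 loci of other mRNAs with a terminal oligopyrimidine tract, in each of the 3 comparisons. Median log2-fold changes of these 3 lists lay between -0.060 and 0.020. Of 47 loci for ribosome assembly, 1 was lower in albumen-deprived than in non-manipulated hens at that level. Against sham-manipulated hens 3 were lower, and 2 were higher in sham-manipulated than in non-manipulated hens. The 3 lower ones were UTP18, RIOK1 and NOC2L, each with an adjusted p of 0.599 or more. UTP18 is a protein of the small-subunit processome (log2-fold change -0.35 ± 0.11 SE, edgeR P of 0.0117). RIOK1 is an assembly kinase of the 40S subunit (-0.39 ± 0.15), and NOC2L had -0.36 ± 0.14. Mean NOC2L was 14.1 CPM after albumen deprivation, 18.0 CPM after the sham manipulation and 14.1 CPM without manipulation. In the same order RIOK1 was at 11.3, 14.9 and 11.8 CPM, and UTP18 at 16.6, 21.1 and 20.4 CPM. For RIOK1 and NOC2L the albumen-deprived mean was thus near the non-manipulated mean, and the sham-manipulated mean was the highest. Of 25 RNA polymerase I and III loci, 1 was lower in albumen-deprived than in non-manipulated and 1 than in sham-manipulated hens. Higher in sham-manipulated than in non-manipulated hens were 2 loci, both of which carry the symbol POLR1D. Of 61 mitochondrial ribosomal protein loci, 1 was lower (MRPL39, log2-fold change -0.30 ± 0.12 SE) and none higher in albumen-deprived than in non-manipulated hens, 1 was higher than in sham-manipulated hens, and MRPL37 was lower in sham-manipulated than in non-manipulated hens (-0.33 ± 0.11 SE).

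For these counts, the shares over all loci tested at an unadjusted P under 0.05 were as follows. In albumen-deprived hens 1.57% were lower and 1.66% higher than in non-manipulated hens, and 3.02% lower and 4.11% higher than in sham-manipulated hens. In sham-manipulated hens 2.98% were lower and 2.3% higher than in non-manipulated hens.

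Among 15 loci of mTOR and MYC signalling, TSC1, a subunit of the complex that inhibits mTOR complex 1, was at 28.2 ± 0.287 CPM in the non-manipulated, 29.99 ± 3.12 CPM in the sham-manipulated and 35.2 ± 1.21 CPM in the albumen-deprived hens (SD, n = 3). Its log2-fold change between albumen-deprived and non-manipulated hens was 0.32 ± 0.11 (SE), with an edgeR P of 0.0146 and an adjusted p of 0.99995. Its partner TSC2 had 0.41 ± 0.17 against the sham-manipulated hens, with an edgeR P of 0.0425 and an adjusted p of 0.694. Neither passed the cut-off or the adjustment over all loci.

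In bulk tissue, fewer cells of a type and less RNA per cell cannot be told apart. Of 17 lists set against the mean member level over the 9 hens, that of T and NK cell markers had the highest correlation, with r of 0.69 and rho of 0.68, and r of 0.30 without the 2 hens farthest from its median. Its 13 loci summed to between 43.0 and 84.0 CPM, with 66.6, 84.0 and 43.0 CPM in the non-manipulated hens, 76.2, 48.3 and 64.9 CPM in the sham-manipulated hens and 47.4, 75.2 and 59.8 CPM in the albumen-deprived hens, and none of the loci was at 0 in all libraries. Hepatocyte markers had an r of -0.092. Elongation factors had r of 0.40 and the other terminal oligopyrimidine mRNAs 0.43, which were -0.14 and -0.081 without the 2 farthest hens. In the same way, initiation factors went from 0.35 to -0.56 and RNA polymerase I and III loci from 0.11 to 0.62. B and plasma cell markers went from -0.12 to -0.60. Mitochondrial ribosomal protein genes had r of 0.47 (0.099 without the 2 farthest hens), erythrocyte markers -0.48 (-0.40) and stellate cell and fibroblast markers -0.30 (-0.71, with a rho of -0.55 over all hens). The part of lymphocytes, erythrocytes and stellate cells or fibroblasts in the level of the members was not tested.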

How the data were processed

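Liver RNA of 9 hens was sequenced, 3 per group, from an unstranded single-end protocol. The authors aligned reads with TopHat2 (2.0.8b) to Galgal4, merged Cufflinks (2.1.1) transcripts with the reference annotation and deposited raw read counts per locus made with HTSeq (0.5.4p3), together with the length and the GC percent of each locus model. The authors also deposited FPKM values after quantile normalization within GC bins. These were used as an alternative for correlations and for the deviations of genes from their own mean. The loci they cover also served as an alternative set for the fits. A deposited table of the authors' own comparisons (fold changes and P-values) was not used. The member list and the other gene lists were chosen with earlier results of these data known.

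The counts were fitted over all 12324 loci with edgeR (4.0.16) after TMM scaling. All 9 libraries entered 1 model with a mean for each treatment, tested by quasi-likelihood with Benjamini-Hochberg adjustment. Loci had over 1 CPM in at least 3 libraries. The 95% intervals used the fitted SE and 9.32 degrees of freedom. The log2 CPM for correlations used a prior count of 2. The fit was tested on simulated data, with 200 loci per comparison changed by 2 on the log2 scale. At the cut-off of the study, 87% of them were recovered for albumen-deprived against non-manipulated hens. The share was 82% for albumen-deprived against sham-manipulated and 88.5% for sham-manipulated against non-manipulated hens. No member had an absolute log2-fold change over 0.5, so these shares do not cover changes of the size seen in the members. Replicate libraries of 1 group differed by more than sampling noise (chi-square of 31.0 or more per degree of freedom), so each counted as a sample. Intervals on shares cover counting error only, as reads without molecular identifiers are not independent molecules.

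The genes named were the 5 highest and 5 lowest per length, the 5 smallest P of each comparison, the 5 widest and 5 narrowest spreads within groups, RPLP0, RPS6, RPSA and the paralog pairs, members below the filter, and up to 3 genes with the smallest P of each other list. RPL31, RPL12, RPL7A, RPS27A, RPLP2, RPL23A, RPS4 and RPS26 were chosen after their values were seen. Alternatives were DESeq2 (1.42.0) size factors and test, GC normalization, no filter, the likelihood ratio test, fits of 2 groups, a replicate block, a term for library code and leaving out each hen. No sequences are printed here, and 2 members that are in all counts and medians are not reported by name.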

Additional observations from a re-analysis of the deposited data

How the results depend on the processing

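Over 20 settings of each comparison, 0 members passed the cut-off and 0 had an adjusted p under 0.05. The number of members lower at an unadjusted P under 0.05 was 0 except in sham-manipulated against non-manipulated hens with GC-bin and between-sample quantile normalization, without and with a replicate block (1 each, RPS4), and in albumen-deprived against non-manipulated hens without albumen-deprived hen 2 (2, RPL29 and RPS28). The share of all loci at that level in these settings is not given here, so these counts cannot be set against it. Leaving out each hen in turn gave 0 to 2 lower members in the latter comparison, 0 in the others and 0 higher members throughout. The median log2-fold change then ranged from -0.22 to -0.027 (albumen-deprived against non-manipulated), -0.17 to 0.034 (against sham-manipulated) and -0.11 to 0.028 (sham-manipulated against non-manipulated).

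Whether hens of the same number were paired is not stated, and the main fit did not pair them. The correlation of their deviations ran from -0.16 to 0.24 and 2 of 9 libraries correlated best with their own number. With a replicate block the median log2-fold changes were -0.12, -0.068 and -0.033 in the same order, and with the block and GC normalization together 1 member was lower in sham-manipulated than in non-manipulated hens.

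Without the 10 loci with the most counts, the share of counts on the members was 3.64% for the non-manipulated group, 3.63% for the sham-manipulated group and 3.42% for the albumen-deprived group, and without the most abundant member it was 2.16% in non-manipulated hens. Leaving out 1 hen, the shares ranged from 2.21% to 2.30%, 2.30% to 2.41% and 1.97% to 2.33%. The median correlation of member pairs was 0.49 after GC normalization and 0.48 in the deposited FPKM values, an alternative chosen after seeing the data, and ranged from 0.60 to 0.77 when 1 hen was left out. The cause was not tested. With 3 hens per group, intervals allow changes of up to 0.60 or 1.46 times for single genes.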
